A study of Mus musculus with 16 samples.

Results

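The genes of zinc handling examined were the metallothioneins Mt1, Mt2 and Mt3, the metal-sensing transcription factor Mtf1, and the zinc transporters Slc30a1, Slc30a3, Slc30a10, Slc39a14, Slc39a10 and Slc39a12. They were picked by gene symbol, with the knowledge that Mt1 and Mt2 were higher in rapamycin-treated cortex. All 10 were found among the 47593 genes of the count table, and all 10 were among the 16553 genes with enough read pairs to be tested. Because the difference between the diets entered the choice, it is given for the 10 genes as a description, and nothing is read from its test.

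Messenger RNA of the cortex was sequenced in 16 libraries from 5xFAD mice, 4 in each of 4 groups: female vehicle (FC), female rapamycin (FR), male vehicle (MC) and male rapamycin (MR). All groups carried the same heterozygous 5xFAD transgenes under the neuron-specific Thy1 promoter on a C57BL/6-SJL hybrid background, and there was no group without them. Rapamycin, an inhibitor of the mTOR kinase, was given in the chow from 2 to 5 months of age, and the control chow held the microencapsulation carrier alone. The labels tie no library to a named animal, and the study's text speaks both of pooling cortical samples and of separate animals, so the p-values here measure the spread between libraries, which may be technical in part.

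Libraries held 16393501 to 20593089 counted read pairs. By their labels, 11 libraries belong to batch 1 and 5 to batch 2 (FC 4, FR 4, FR 5, MC 4 and MR 4). The library labelled MR 4 held 9935 Xist read pairs and 0 on Ddx3y, Uty, Kdm5d and Eif2s3y together, against its male label, and MC 4 stood apart with a sum over 10 choroid plexus markers of 2020 CPM (counts scaled to library size), against at most 340 CPM elsewhere. Cortical markers were present in every library, with a sum over 5 glutamatergic neuron markers of 3911 to 5937 CPM and none of them at 0. FR 1, FR 2 and MR 2 had the highest shares of mitochondrial read pairs (6.88%, 6.98% and 6.99%, against 2.64% to 5.47% in the others) and the steepest tilt towards genes with short exons. That tilt, the slope of a library's log2 CPM on log2 exon length after each gene's mean is taken away, was -0.12, -0.13 and -0.12 in these 3 and -0.03 to 0.10 in the other 13.

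Metallothioneins are small cysteine-rich proteins that bind zinc and copper. Mt1 and Mt2 lie next to each other in the genome and are switched on by zinc through the factor MTF1, which binds metal response elements in their promoters, and also by glucocorticoids. In brain they are mainly known as astrocyte genes, while Mt3 is the brain-enriched member and responds little to metals. SLC30 proteins move zinc out of the cytosol, SLC39 proteins move it in, and Slc30a1 is itself a known target of MTF1.

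The promoters of Mt1, Mt2, Mt3 and Slc30a1 are shown because they place the metal response element core beside the genes whose levels are described next. Each run holds 250 bases before and 50 bases after the RefSeq start on GRCm38.p6, with matches to TGCACNC or TGCGCNC on either strand in capitals.
Mt1, chr8:94178839-94179138, plus strand: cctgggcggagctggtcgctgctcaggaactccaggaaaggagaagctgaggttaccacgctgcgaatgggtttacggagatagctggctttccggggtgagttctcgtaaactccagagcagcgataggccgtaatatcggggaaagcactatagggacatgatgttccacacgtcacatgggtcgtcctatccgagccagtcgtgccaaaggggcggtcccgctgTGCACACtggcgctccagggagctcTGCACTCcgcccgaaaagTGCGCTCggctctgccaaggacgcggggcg
Mt2, chr8:94172368-94172667, plus strand: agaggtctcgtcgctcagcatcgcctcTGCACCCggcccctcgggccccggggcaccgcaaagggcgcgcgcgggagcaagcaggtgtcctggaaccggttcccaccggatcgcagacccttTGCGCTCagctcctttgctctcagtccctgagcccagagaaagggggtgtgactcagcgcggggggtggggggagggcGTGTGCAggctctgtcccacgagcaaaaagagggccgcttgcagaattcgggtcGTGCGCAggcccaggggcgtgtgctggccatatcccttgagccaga
Mt3, chr8:94152357-94152656, plus strand: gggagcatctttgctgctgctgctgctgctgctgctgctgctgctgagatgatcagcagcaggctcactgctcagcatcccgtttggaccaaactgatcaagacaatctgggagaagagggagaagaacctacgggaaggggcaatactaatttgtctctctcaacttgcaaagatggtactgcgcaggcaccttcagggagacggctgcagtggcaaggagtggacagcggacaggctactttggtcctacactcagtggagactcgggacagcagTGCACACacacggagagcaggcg
Slc30a1, chr1:191906531-191906830, plus strand: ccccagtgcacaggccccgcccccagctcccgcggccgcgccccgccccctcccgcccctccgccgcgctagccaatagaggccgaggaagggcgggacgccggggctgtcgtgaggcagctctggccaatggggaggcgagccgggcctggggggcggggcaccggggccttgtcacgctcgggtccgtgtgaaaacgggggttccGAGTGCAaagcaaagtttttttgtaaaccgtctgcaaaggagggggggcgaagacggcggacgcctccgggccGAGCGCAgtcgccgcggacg

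Mt1 held 3 matches in this window, Mt2 4, Slc30a1 2 and Mt3 1. Of 32851 mouse promoters of the same length, 25.7% held at least 1 match, 7.11% at least 2, 1.97% at least 3 and 0.518% at least 4. In Mt1 the nearest matches stood 23 to 17 bases before and 3 to 9 bases after the RefSeq start used here. Other starts of Mt1, and bases beyond this window, were not examined. Slc30a10 held 3 matches, of which 2 overlap on opposite strands, and Slc30a3 held 1 in only 1 of its 2 entries. Mtf1, Slc39a10 and Slc39a12 held 0. Slc39a14 had no entry. A match describes letters in the window and does not show that a factor binds there.

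The 3 metallothioneins sit in a cluster on chromosome 8 (GRCm38), all on the plus strand: Mt3 at chr8:94152607-94154148, Mt2 at chr8:94172618-94173567 and Mt1 at chr8:94179089-94180325. Their exons are short, with 538, 556 and 540 bases in all. Mtf1 lies at chr4:124802104-124849800 (plus strand). Of the exporters, Slc30a1 lies at chr1:191906767-191913247 (plus), Slc30a3 at chr5:31086106-31108237 (minus) and Slc30a10 at chr1:185454848-185468762 (plus). Of the importers, Slc39a14 lies at chr14:70303469-70351425 (minus), Slc39a10 at chr1:46807544-46892852 (minus) and Slc39a12 at chr2:14388316-14494977 (plus). Counting covered exons and ignored strand. An antisense gene in GENCODE, Gm45774, shared 45.8% of the 50-base stretches of Mt2 and had no row in the count table, so its read pairs, if any, cannot be told apart from those of Mt2. Mt1 and Mt3 shared no 50-base stretch with another gene. On the opposite strand, 8.09% of Mtf1 exon bases overlapped 1110065P20Rik, 8.92% of those of Slc30a1 overlapped 1700034H15Rik and 9.13% of those of Slc30a10 overlapped Gm2061.

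Levels between genes were set against each other per length, as depth-scaled read pairs per kilobase of exon (RPKM). Mt3 was the most abundant of the 10 genes with 512 ± 172 RPKM (SD, n = 16), followed by Mt1 with 348 ± 160 and Mt2 with 131 ± 63.4. This order of the metallothioneins was the same in 16 of 16 libraries. Among the transporters, Slc39a10, a zinc importer of the plasma membrane, led with 48.7 ± 11.2 RPKM and exceeded Slc30a3 (38.5 ± 7.91), the exporter that loads zinc into synaptic vesicles, in 13 of 16 libraries. Slc39a12, a brain zinc importer, had 13.5 ± 1.99 RPKM and Slc30a1, the exporter of the plasma membrane, 7.63 ± 0.903. Mtf1 (3.16 ± 0.398), Slc39a14 (3.06 ± 0.418), an importer of zinc, iron and manganese, and Slc30a10 (2.78 ± 0.690), known as a manganese exporter, were lowest. Mtf1 exceeded Slc39a14 in only 9 of 16 libraries and Slc39a14 exceeded Slc30a10 in 12 of 16, so the order of these 3 did not stand beyond their spread. Mt4, the remaining metallothionein, had 1 read pair over all libraries and was not tested.

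**Figure D1:**
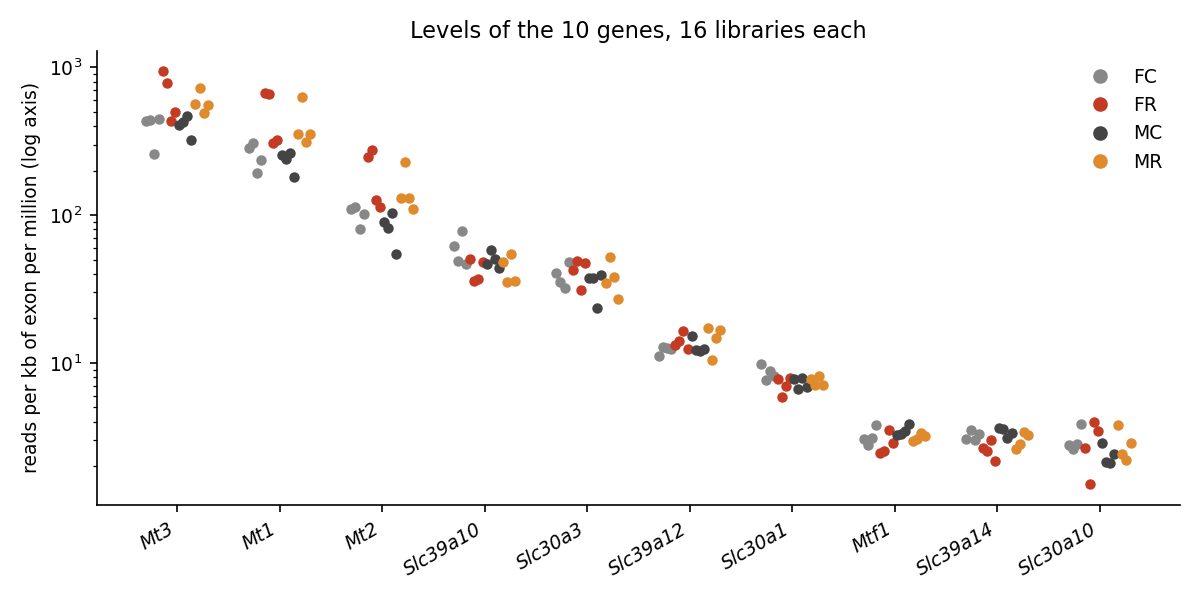
Per-length level of the 10 genes in 16 libraries, in RPKM on a log axis, with 1 point per library coloured by group. Mt3, Mt1 and Mt2 lie above all transporters in every library, and the last 3 genes overlap.

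Mt1 was higher in rapamycin-treated cortex in both sexes. It measured 154, 166, 103 and 128 CPM in FC 1 to FC 4 and 364, 356, 167 and 175 CPM in FR 1, FR 2, FR 4 and FR 5. In males it measured 137, 129, 142 and 97.6 CPM in MC 1 to MC 4 and 190, 340, 169 and 192 CPM in MR 1 to MR 4. Every rapamycin library exceeded every vehicle library, although FR 4 (166.8 CPM) and FC 2 (166.3 CPM) all but touched, and 0.127% of all genes tested had the same separation with higher values. The shares for single sexes were 2.13% in females and 2.82% in males. Nothing is read from these shares or from those of the same kind given further on, since this difference entered the choice. FR 1, FR 2 and MR 2 stood well above the other 5 rapamycin libraries, which lay between 167 and 192 CPM. The fitted log2 difference, rapamycin minus vehicle with sex and batch in the model, was 0.91 ± 0.15 (SE, n = 8 against 8), a 1.88-fold higher level. It was 0.99 ± 0.21 in females and 0.83 ± 0.21 in males.

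Mt2 ran beside Mt1. It measured 60.9, 63.3, 44.9 and 56.9 CPM in FC 1 to FC 4 and 138, 154, 70.7 and 63.2 CPM in FR 1, FR 2, FR 4 and FR 5. The male libraries held 49.6, 45.3, 57.1 and 30.1 CPM (MC 1 to MC 4) and 72.8, 128, 73.1 and 61.6 CPM (MR 1 to MR 4). Male groups did not overlap, whereas FR 5 lay just below FC 2 in females. The log2 difference was 0.93 ± 0.14, with 0.96 ± 0.21 in females and 0.89 ± 0.21 in males. Although Mt1 spanned 3.73-fold and Mt2 5.10-fold over the 16 libraries, the per-length ratio of Mt2 to Mt1 stayed between 0.300 and 0.431, with 0.374 ± 0.043 in vehicle and 0.378 ± 0.038 in rapamycin libraries (SD, n = 8 each).

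Mt3 was also higher with rapamycin, by less. It measured 235, 238, 140 and 241 CPM in FC 1 to FC 4 and 505, 419, 232 and 269 CPM in FR 1, FR 2, FR 4 and FR 5. Males held 220, 230, 251 and 173 CPM (MC 1 to MC 4) and 305, 388, 265 and 298 CPM (MR 1 to MR 4). FR 4 fell within the FC range, while the male groups did not overlap. The log2 difference was 0.65 ± 0.14, with 0.76 ± 0.20 in females and 0.54 ± 0.20 in males. The per-length ratio of Mt3 to Mt1 was 1.65 ± 0.19 in vehicle and 1.43 ± 0.18 in rapamycin libraries. Together the 3 genes took 0.0399% ± 0.0072 of counted read pairs with vehicle and 0.0672% ± 0.0206 with rapamycin.

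**Figure D2:**
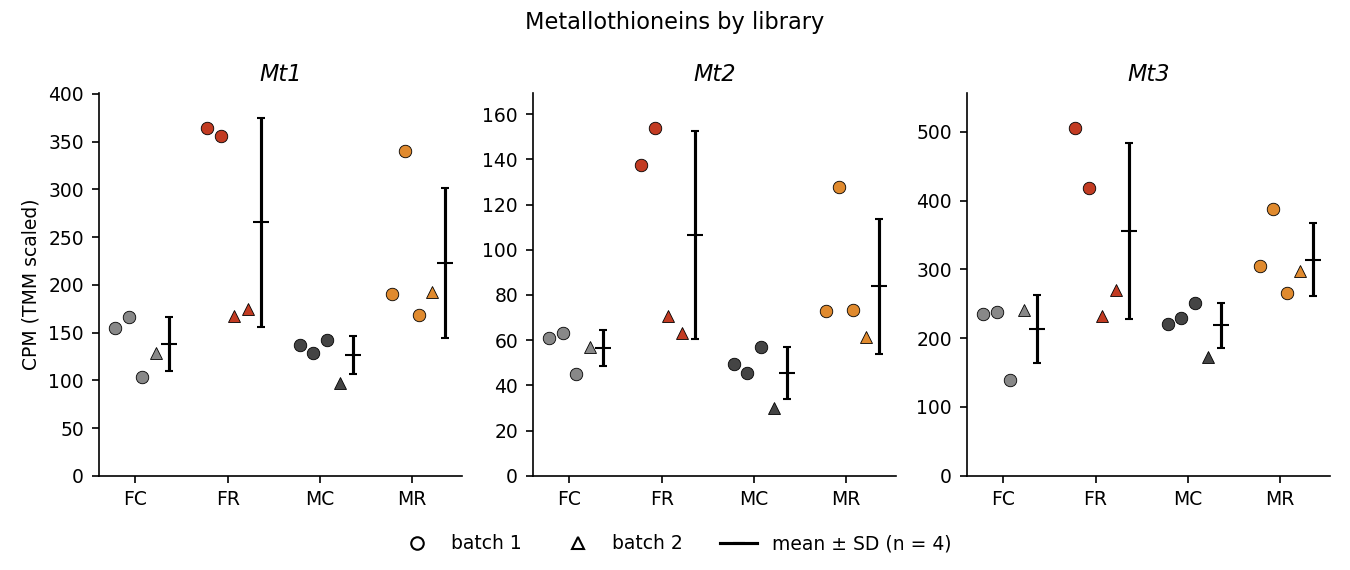
CPM (TMM scaled) of Mt1, Mt2 and Mt3 in each library by group, with circles for batch 1, triangles for batch 2 and the mean ± SD of the 4 libraries beside them. In all 3 panels FR 1, FR 2 and MR 2 lie above the other rapamycin libraries.

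Batch and library quality moved with these values. Within batch 1 (6 vehicle and 5 rapamycin libraries) the difference of mean log2 CPM was 0.97 for Mt1, 1.02 for Mt2 and 0.77 for Mt3, with no overlap for any of them, where 2.22% of all genes tested were higher without overlap. Within batch 2 (2 vehicle and 3 rapamycin libraries) it was 0.67, 0.65 and 0.37. The 3 libraries with the highest Mt1 were the same 3 that had the highest mitochondrial share and the steepest tilt to short exons. Without them the log2 differences were 0.52 ± 0.12 for Mt1, 0.58 ± 0.12 for Mt2 and 0.35 ± 0.14 for Mt3. With the length tilt taken out of each library by offsets they were 0.63 ± 0.11, 0.65 ± 0.11 and 0.38 ± 0.11. With the tilt as a covariate they were 0.25 ± 0.12, 0.43 ± 0.17 and 0.11 ± 0.15, and with the mitochondrial share as a covariate 0.47 ± 0.19, 0.55 ± 0.18 and 0.40 ± 0.21. Leaving out any single library kept the differences between 0.82 and 0.99 for Mt1, 0.83 and 1.05 for Mt2, and 0.56 and 0.74 for Mt3. The part of the tilt in each difference was not tested.

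Genes with short exons were shifted as a class. The median log2 difference was 0.33 over 364 genes with up to 600 exon bases, the class of the metallothioneins, and 0.28 over 603 genes with over 600 and up to 1000 bases. It was -0.09 over 7732 genes with more than 4000 bases and 0.02 over all genes tested. The metallothionein differences lay above the median of their own length class, by values that the class median itself does not test.

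**Figure D3:**
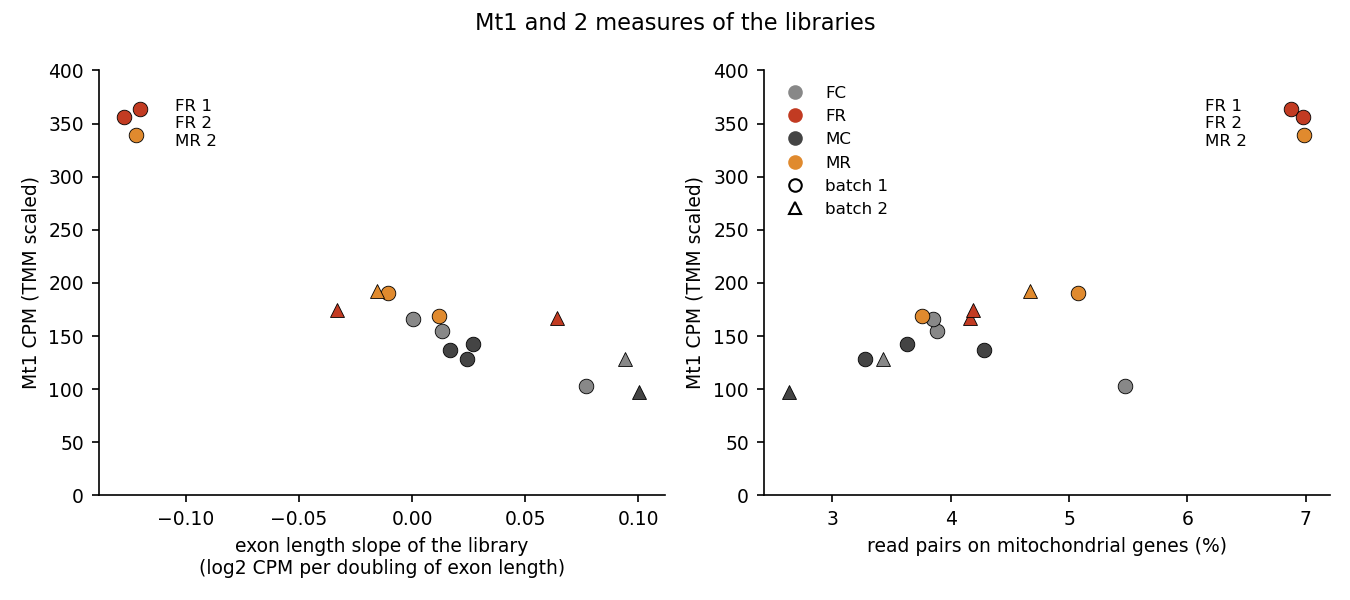
Mt1 CPM in each library against the exon length slope (left, log2 CPM per doubling of exon length) and the percentage of read pairs from mitochondrial genes (right), coloured by group, with circles for batch 1 and triangles for batch 2. FR 1, FR 2 and MR 2 lie apart from the other 13 libraries on both measures and above 300 CPM.

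Markers of cell types that could carry these genes were summed per library. The sum over 10 astrocyte markers ranged from 3988 to 6040 CPM with vehicle and from 3413 to 6467 CPM with rapamycin, and was 3867, 3873 and 3413 CPM in FR 1, FR 2 and MR 2, where Mt1 was highest. Most of this sum is Slc1a2, a glutamate transporter, with a mean of 2881 CPM and a log2 difference of -0.07. Of the 10 astrocyte markers 1 was called (Gjb6, higher, 0.47), against 13.3% of all genes tested, and 5 had an unadjusted p under 0.05 (30.4% of all genes), all with higher values with rapamycin: Gjb6, Gja1 (0.28), Aldh1l1 (0.25), Slc1a3 (0.27) and Fgfr3 (0.25). Gfap and Aqp4 had lower means with rapamycin. Gfap averaged 572 ± 139 CPM with vehicle and 427 ± 170 CPM with rapamycin (SD, n = 8 each). Aqp4 averaged 108 ± 25.3 and 96.2 ± 31.0 CPM. The median log2 difference of the 10 astrocyte markers was 0.25, against 0.02 over all genes. The markers named here were chosen after their values were seen. Of the 10 choroid plexus markers, of which MC 4 held the highest sum, 4 were called lower, where 6.86% of all genes tested were. Their sums ran from 17.7 to 2020 CPM with vehicle (median 155) and from 26.3 to 201 CPM with rapamycin (median 77.2). The count without MC 4 is not given. The sum over 5 oligodendrocyte markers reached 9234 CPM in FR 2 against 3525 to 6354 CPM in the others. The part of these markers in the metallothionein values was not tested. In bulk cortex, fewer cells of a type and less RNA per cell cannot be told apart.

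Mtf1, which encodes the zinc sensor, was not higher with rapamycin. It measured 27.2, 24.9, 27.5 and 33.8 CPM in FC 1 to FC 4 and 21.99, 22.6, 31.5 and 25.6 CPM in FR 1, FR 2, FR 4 and FR 5. In males it measured 28.8, 29.2, 30.9 and 34.5 CPM (MC 1 to MC 4) and 26.2, 27.3, 29.99 and 28.6 CPM (MR 1 to MR 4). The groups overlapped in both sexes and the log2 difference was -0.18 ± 0.07. Slc30a1, whose transcription MTF1 is known to raise together with Mt1, lay between 34.9 and 51.2 CPM with vehicle (median 41.0) and between 30.8 and 42.5 CPM with rapamycin (median 38.9). Its log2 difference was -0.11 ± 0.09, with -0.26 ± 0.12 in females and 0.04 ± 0.11 in males.

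Slc39a14 and Slc39a10 were the importers with lower values in rapamycin libraries. Slc39a14 measured 32.4, 36.9, 31.7 and 35.0 CPM in FC 1 to FC 4 and 27.9, 26.5, 31.5 and 23.03 CPM in FR 1, FR 2, FR 4 and FR 5. In males it measured 38.5, 37.5, 33.0 and 35.2 CPM (MC 1 to MC 4) and 27.5, 29.6, 36.2 and 34.4 CPM (MR 1 to MR 4). The female groups did not overlap, with a narrow gap between FR 4 and FC 3, where 3.65% of all genes tested were lower without overlap, and the male groups overlapped. The log2 difference was -0.25 ± 0.08, and -0.10 ± 0.08 with the length tilt taken out by offsets. The exons of Slc39a14 span 10550 bases, the longest of the 10 genes.

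Slc39a10 measured 377, 296, 479 and 283 CPM in FC 1 to FC 4 and 307, 217, 224 and 291 CPM in FR 1, FR 2, FR 4 and FR 5. The male libraries held 286, 356, 306 and 269 CPM (MC 1 to MC 4) and 295, 216, 331 and 217 CPM (MR 1 to MR 4). FC 3 was the highest of all 16 and also held the lowest Mt3. The log2 difference was -0.29 ± 0.12, with overlap in both sexes, and was -0.13 ± 0.12 without FR 1, FR 2 and MR 2 and 0.02 ± 0.16 with the tilt as a covariate.

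The remaining transporters showed no separation between diets. Slc30a3 ranged from 67.2 to 136 CPM with vehicle and from 77.3 to 148 CPM with rapamycin, with a log2 difference of 0.13 ± 0.14. The difference was 0.33 within batch 1 and -0.33 within batch 2, with overlap of the diets in both. Its sign differed, but a difference in response between the batches was not tested. Slc30a10 ranged from 12.3 to 22.4 CPM and from 8.81 to 23.3 CPM, with a log2 difference of 0.03 ± 0.15. Slc39a12 ranged from 33.2 to 45.2 CPM with vehicle and from 31.5 to 51.3 CPM with rapamycin, and its log2 difference of 0.18 ± 0.10 was positive under every alternative tried, between 0.13 and 0.38.

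**Figure D4:**
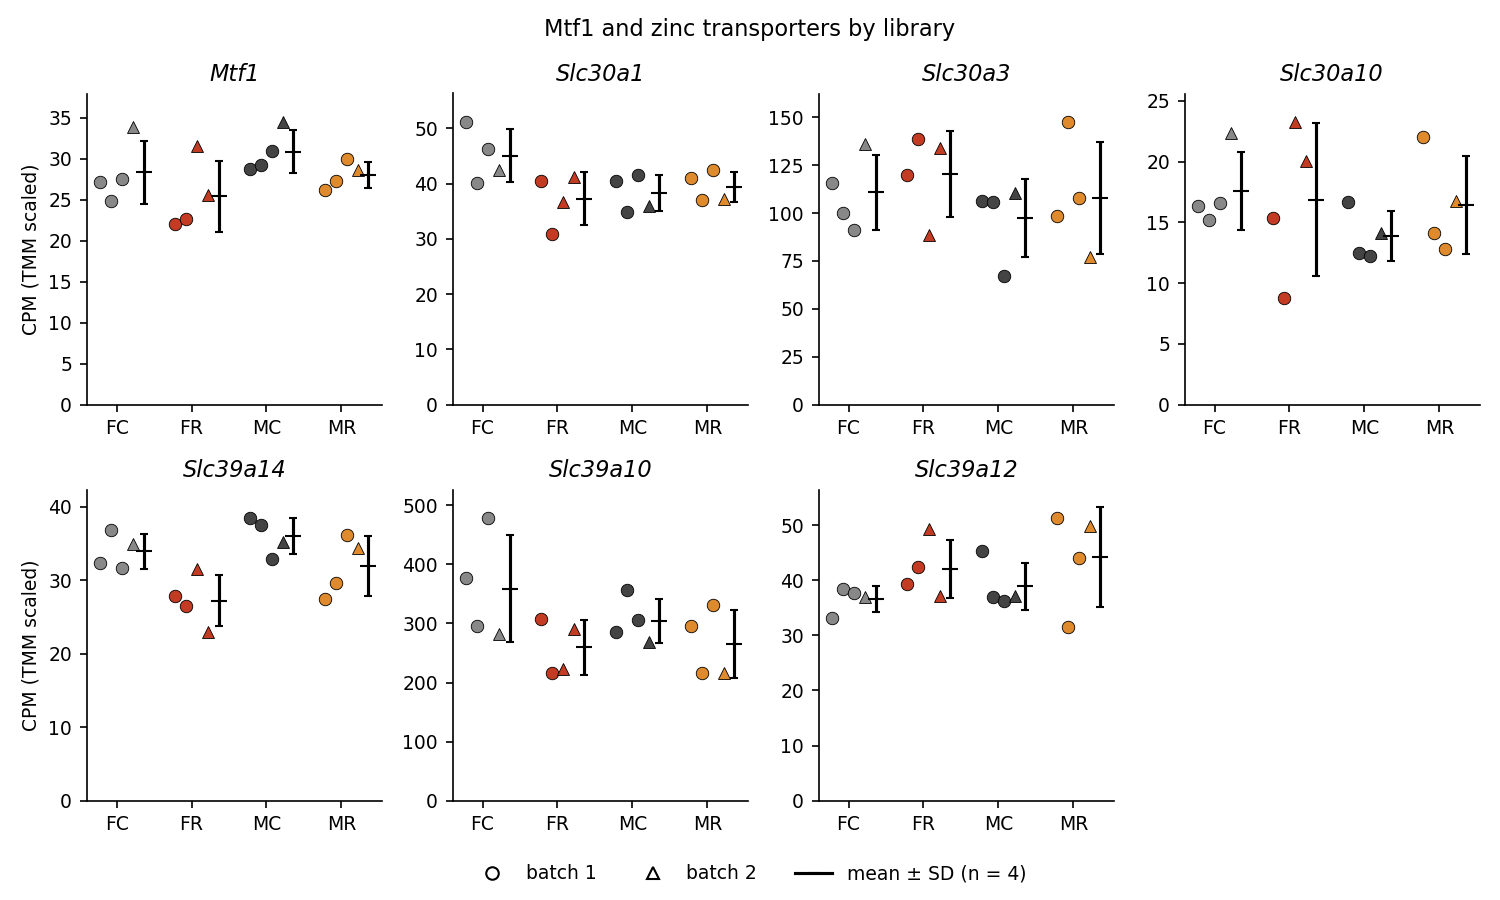
CPM (TMM scaled) of Mtf1 and the 6 zinc transporters in each library by group, with circles for batch 1, triangles for batch 2 and the mean ± SD of the 4 libraries beside them. Only Slc39a14 in females separates the diets within a sex.

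Of the 10 genes, edgeR's quasi-likelihood test called 3 for the difference between diets (Mt1, Mt2 and Mt3, all higher) at an adjusted p under 0.05, where 13.3% of all genes tested were called and 6.46% were called higher. Nothing is read from this count, since that difference entered the choice. Leaving out single libraries gave 3 to 6 called genes, with 6 without MR 3 and 5 without FR 4. The count was 0 without FR 1, FR 2 and MR 2 together, 0 with the tilt as a covariate and 0 with the mitochondrial share as a covariate. Shares of all genes called under these settings are not given, so nothing is read from these counts about the 10 genes.

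**Figure D5:**
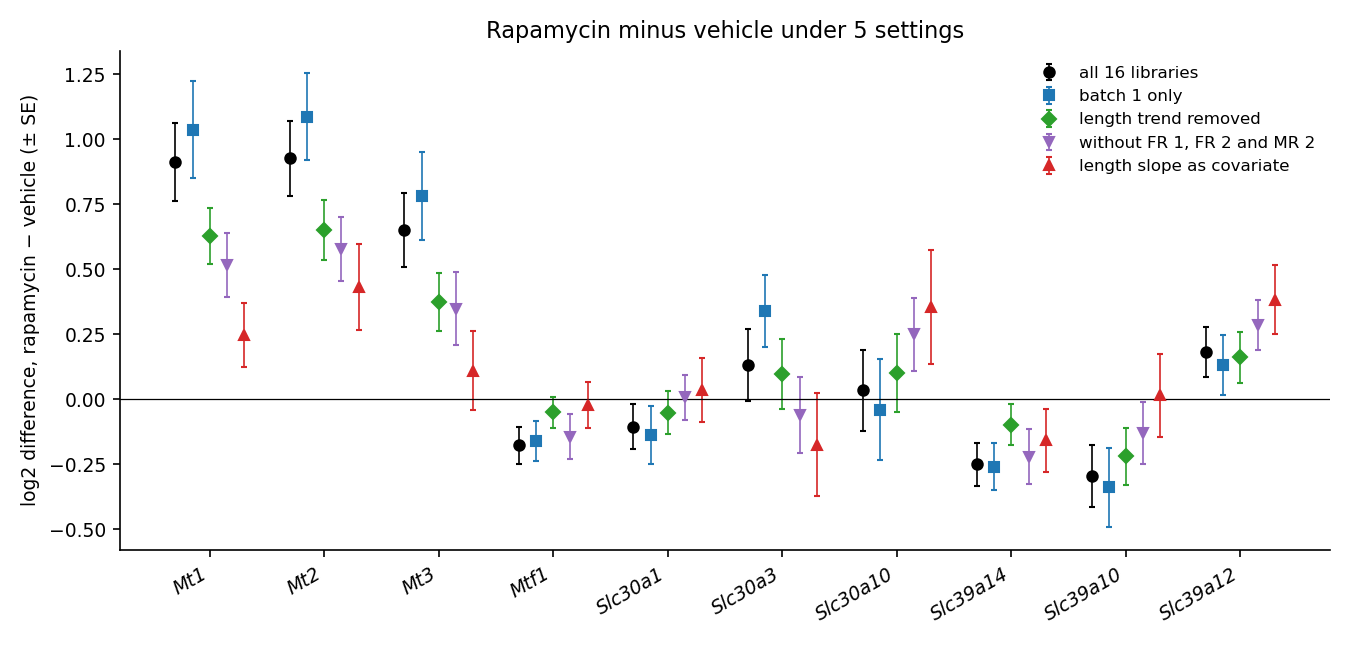
Log2 difference (rapamycin minus vehicle, ± SE) of the 10 genes under 5 settings, from all 16 libraries to the exon length slope as a covariate. The 3 metallothioneins stay above 0 under all 5 but shrink, Mt1 from 0.91 to 0.25, whereas Slc30a1, Slc30a3, Slc30a10 and Slc39a10 cross 0.

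The choice of genes did not use sex, and the difference between the sexes could be tested. None of the 10 genes differed between females and males after adjustment (0 of 10, against 0.0302% of all genes tested), and 2 of 10 had an unadjusted p under 0.05 (5.99% of all genes). These were Mt2, with a female minus male log2 difference of 0.40 ± 0.14 (edgeR adjusted p = 0.800), and Mtf1, with one of -0.17 ± 0.07 (adjusted p = 0.810). Mt2 averaged 81.4 ± 40.6 CPM in the 8 female libraries and 64.7 ± 29.3 CPM in the 8 male libraries. Mt1 differed by 0.23 ± 0.15 (adjusted p = 0.851). DESeq2 also called 0 of 10, as did edgeR without MR 4, whose sex genes went against its label.

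The response to rapamycin was not shown to differ between the sexes for any of the 10 genes. The interaction, the female minus the male log2 response, was 0.16 ± 0.30 for Mt1, 0.07 ± 0.29 for Mt2 and 0.23 ± 0.29 for Mt3 (edgeR adjusted p = 0.999 each). None of the 10 was called, none had an unadjusted p under 0.05 (2.17% of all genes did), and the share called over all genes was 0%. The smallest unadjusted p was that of Slc30a1 (0.075, interaction -0.31 ± 0.16). The errors of about 0.30 on the log2 scale limit the differences in response that could be seen.

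Between batch 2 and batch 1, 3 of the 10 genes were called, where 35.5% of all genes tested were. Mt1 was lower in batch 2 by a log2 difference of -0.52 ± 0.16 (edgeR adjusted p = 0.0192), Mt2 by -0.63 ± 0.16 (adjusted p = 0.00564), and Mtf1 was higher by 0.24 ± 0.08 (adjusted p = 0.0181). Mean Mt1 was 205 ± 98.2 CPM in 11 batch 1 libraries and 152 ± 38.3 CPM in 5 batch 2 libraries. The 3 libraries with the steepest tilt are all of batch 1. Without them 1 of 10 genes was called, as was the case without FR 4 alone. The shares of all genes called for batch without these libraries are not given, so these counts are not read.

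The remaining zinc transporters, listed by family with earlier results of these data known, gave no called gene for rapamycin. Of 7 further SLC30 exporters 6 were tested and 0 called, with a median log2 difference of -0.01, and of 11 further SLC39 importers 11 were tested and 0 called, with a median of -0.02. At an unadjusted p under 0.05 there were 1 exporter and 3 importers (30.4% of all genes). The median over all genes was 0.02, and 13.3% of them were called, 6.86% lower. Of the further metal genes of all lists, DESeq2 (43 entered) and edgeR without a filter on low counts (45 entered) each called 6. Whether any of these is a zinc transporter, and the shares of all genes called, are not given, so these counts are not read. Slc30a9, which had the highest mean CPM of the other exporters, measured 158 ± 18.99 CPM with vehicle and 161 ± 15.4 CPM with rapamycin (log2 difference 0.06 ± 0.06, adjusted p = 0.551). Slc39a3, which had the highest mean CPM of the other importers, measured 97.1 ± 9.98 and 96.1 ± 13.8 CPM (log2 difference -0.02 ± 0.09, adjusted p = 0.884).

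Of the 43 further metal genes tested 5 were called (4 higher, 1 lower, a median log2 difference of 0.01 over all 43), against 13.3% of all genes tested, and the 5 were copper and iron genes. With the tilt as a covariate 0 of the 43 were called, and the log2 differences of Atox1, Sod1 and Fth1, described next, turned to -0.12, -0.083 and -0.024. The share of all genes called with that covariate is not given. Of 9 copper genes 3 were called. Atox1, the copper chaperone that feeds the copper pumps, rose from 24.5 ± 3.87 to 33.4 ± 8.96 CPM (SD, n = 8 each, log2 difference 0.48 ± 0.13, adjusted p = 0.0256). Sod1, the copper and zinc superoxide dismutase, rose from 155 ± 21.4 to 196 ± 50.9 CPM (0.39 ± 0.10, adjusted p = 0.0237). Atp7a, a copper pump, fell from 6.08 ± 2.58 to 3.86 ± 2.21 CPM (-0.84 ± 0.21, adjusted p = 0.0208). For each of the 3 the library values of the diets overlapped.

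Of 9 iron genes 2 were called (13.3% of all genes were), both subunits of the iron store ferritin. Fth1, the heavy chain, rose from 1643 ± 214 to 2243 ± 608 CPM (log2 difference 0.49 ± 0.12, adjusted p = 0.0186), and Ftl1, the light chain, rose from 214 ± 32.9 to 260 ± 45.1 CPM (0.33 ± 0.09, adjusted p = 0.0323). Ferritin genes have near-identical processed copies in the genome, so their counts are uncertain. Of 8 oxidative stress genes 0 were called (median log2 difference 0.08, 0 at an unadjusted p under 0.05, where 30.4% of all genes were), and Srxn1, which had the highest mean CPM, measured 92.2 ± 7.53 and 98.1 ± 16.7 CPM (adjusted p = 0.333).

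FR 1, FR 2 and MR 2 also held the highest Fth1, at 2688, 3216 and 2916 CPM, the 3 highest Atox1, at 43.3, 44.3 and 42.0 CPM, and the 3 lowest Atp7a, at 1.38, 1.69 and 1.90 CPM. Without these 3 libraries 0 of the 43 genes were called. The share of all genes called without them is not given, so this count is not read. Without FR 1 alone 1 was called, without FR 2 or MR 2 alone 2, and without FR 4 alone 8. The shares of all genes called without single libraries are not given either, so these counts are not read. The exons of the 4 genes that rose are short, from 541 bases in Atox1 to 969 in Ftl1, and those of Atp7a span 8734 bases.

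The genes most like Mt1 and Mt2 were sought after the terms for sex, batch and treatment had been taken out, by Pearson's r of residual log2 CPM with the mean residual of the pair over 16 libraries. The 5 with the highest r were Naa10 (0.95), Rpl36 (0.93), Ndufa1 (0.93), Ndufs6 (0.92) and Uqcr10 (0.92). Mt3 ranked 17th with 0.89. These residuals share library, depth and length tilt, and 4 of the 5 genes have exons of 404 to 629 bases, with Naa10 at 4132.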

How the data were processed

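Raw counts of read pairs on each gene were deposited by the authors. Per the file headers and the study's methods these were made with Trimmomatic 0.39 (first 10 bases removed), HISAT2 2.2.1 on GRCm38 (mm10) and featureCounts 2.0.3 with Ensembl exons, without using strand, and the submitters' processing notes also name FastQC 0.11.9 and Trim Galore. The same counts were deposited in 1 table per group, with 0 differing cells. The columns used all belong to labelled samples.

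Counts were scaled by TMM and tested in R 4.3.3 with edgeR 4.0.16 (filterByExpr, minimum count 10). The quasi-likelihood model held treatment, batch and sex, or group and batch for the interaction, and p-values were adjusted by Benjamini-Hochberg over 16553 genes. A gene was called at an adjusted p under 0.05. Log2 CPM values had a prior count of 2, and RPKM used the exon length in the deposited table. DESeq2 1.42.0 was an alternative test. Tests were tried on simulated counts drawn around 1 mean per gene. These held no tilt to short exons, no shift in mitochondrial share and no batch effect. They therefore do not bear on how those features affect the calls. Promoters and their coordinates came from RefSeq (GRCm38.p6), where 9 of the 10 genes had an entry. Figures were drawn with matplotlib 3.10.9.

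The 10 genes, the metal lists and the markers were chosen with earlier results of these data known. Named are the 10 genes, the called genes (at most 5) and the gene with the highest mean CPM of each metal list, the 4 glucocorticoid-induced genes with the highest mean CPM, the 5 genes most like Mt1 and Mt2, and the sex-linked genes.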

Additional observations from a re-analysis of the deposited data

Results flagged for a closer look

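Each gene's 4 libraries per group were checked for a single library far from the other 3, over 40 combinations of gene and group, of which chance gives about 1 in 20. Of these, 4 stood out. Mt1 in MR 2 measured 340 CPM, against 169 to 192 CPM in the other MR libraries. Mt3 in FC 3 measured 140 CPM, against 235 to 241 CPM in the other FC libraries. Slc30a3 in MC 3 measured 67.2 CPM, against 106 to 111 CPM in the other MC libraries, and Slc39a12 in MC 1 measured 45.2 CPM, against 36.1 to 37.2 CPM.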

How the results depend on the processing

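The counts for sex, and for the sex by treatment interaction, stayed at 0 of 10 called genes under all 27 alternatives. For the difference between diets, 3 of the 10 genes and 5 of the 43 further metal genes were called. Leaving out 1 library at a time gave 3 to 6 and 1 to 8 of them, and 1 to 4 for batch, where 3 were called. The counts for the 10 genes, the further metal genes and batch were 0, 0 and 1 with the exon length slope as a covariate, 0, 0 and 0 with the mitochondrial share as a covariate, and 0, 0 and 1 without FR 1, FR 2 and MR 2. The further metal genes came to 0 without a batch term, 2 without MC 4 and MR 4 and 2 with the length trend removed by offsets. Shares of all genes called under these alternatives are not given, so the counts are not read for these genes alone. With the slope as a covariate the log2 differences of Atox1, Sod1 and Fth1 turned to -0.12, -0.083 and -0.024. The cause was not tested. Removal of the length trend by offsets and of FR 1, FR 2 and MR 2 together were chosen after seeing the data.

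The replicate numbers of the labels did not pair the libraries: over 21 pairs with the same number the correlation of deviations ran from -0.43 to 0.37 (median 0.03), and 4 of 15 libraries were closest to their own number. With the replicate number as a block in place of batch, 3 of the 10 genes and 3 of the further metal genes were called. The share of all genes called with this block is not given, so these counts are not read.

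With 4 libraries per group and 5 in batch 2, small differences between groups were not detectable, and the tilt to short exons, the mitochondrial share and the diet are linked in these libraries.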

Other observations

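Glucocorticoids are known to raise Mt1 and Mt2, so 12 glucocorticoid-induced genes were set beside them. Of these 4 were called higher with rapamycin and 0 lower, where 6.46% of all genes tested were called higher, with a median log2 difference of 0.40 against 0.02 over all genes. Tsc22d3, a leucine zipper factor induced by glucocorticoids, rose from 63.6 ± 12.2 to 102 ± 32.3 CPM (SD, n = 8 each, log2 difference 0.70 ± 0.15, edgeR adjusted p = 0.0133). Arrdc2 (0.93 ± 0.22, adjusted p = 0.0160), Nfkbia (0.75 ± 0.17, adjusted p = 0.0160) and Ddit4 (0.57 ± 0.17, adjusted p = 0.0328) also rose; these 3 are named after their values were seen. Klf9, which had the highest mean CPM of the list, had a log2 difference of -0.34 ± 0.11 (adjusted p = 0.0504), Per1 one of 0.22 ± 0.20 (adjusted p = 0.490) and Sgk1 one of 0.78 ± 0.30 (adjusted p = 0.0856). Zbtb16, also named after its values were seen, had one of -0.23 ± 0.23 (adjusted p = 0.536). Pearson's r of the 12 genes with the mean residual of Mt1 and Mt2 ran from -0.68 (Zbtb16) to 0.73 (Arrdc2). Within batch 2 the differences of mean log2 CPM were 0.26 for Tsc22d3, -0.12 for Sgk1 and -0.53 for Per1, against 0.88, 1.02 and 0.55 within batch 1. The sign for Sgk1 and Per1 thus differed between batches. The sign for Fkbp5, named after its values were seen, differed as well, with 0.58 within batch 1 and -0.39 within batch 2. A difference in response between the batches was not tested. The count of called genes was 0 of 12 without FR 1, FR 2 and MR 2, with a covariate for the tilt to short exons, with one for mitochondrial share, and without a batch term. It was 3 to 6 when single libraries were left out, 3 with the length trend removed by offsets, and 7 with DESeq2 and without a filter on low counts. Shares of all genes called under these alternatives are not given, so nothing is read from these counts. Glucocorticoids were not measured, and their part in the metallothionein values was not tested.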
